A study of Mus musculus with 8 samples.

Results

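This account describes 8 long noncoding RNAs of the mouse: *Malat1*, *Neat1*, *Kcnq1ot1*, *Meg3*, *H19*, *Gas5*, *Snhg1* and *Snhg12*. They were chosen by name as RNAs that stay in the nucleus, come from imprinted loci or carry small nucleolar RNAs (snoRNAs) in their introns. All 8 had a row among the 23861 genes listed for hair follicle stem cells (HFSCs), and 6 had a row among the 16231 genes listed for epidermal stem cells (EpdSCs). For *Meg3* and *H19* no EpdSC value was analysed here.

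Total RNA from sorted cells of mouse dorsal skin was sequenced in 8 libraries, with 2 per genotype and cell type. The mutant mice were germline homozygous *Msx2* knockouts (Msx2-KO) in which a neo cassette sits upstream of exon 2, and the wild type (WT) controls were C57BL/6J mice matched for the stage of the hair cycle. All skin was in telogen. The mice were 6 months old except the WT mice of the HFSC comparison, which were 2 months old, so that age and genotype cannot be told apart in HFSCs. HFSCs were gated as CD34+CD49f+Sca-1- and EpdSCs as CD34-CD49f+Sca-1+. Nothing in the labels says whether replicates came from separate animals, and the p-values measure only the spread between these libraries. *Msx2* itself had 53 and 7 estimated counts in the WT and 40 and 18 in the Msx2-KO libraries of HFSCs, with a log2 fold change of -0.20 (edgeR, adjusted p = 0.975). In EpdSCs the WT libraries had 58.5 and 85.4 normalized counts of *Msx2* and the mutant libraries 150.3 and 22.2 (log2 fold change -0.27, limma adjusted p = 0.865). The targeted gene was thus not lower beyond the spread between libraries in either cell type, and the mutant libraries are called by their label, KO. By in situ hybridization of skin, the authors report that *Msx2* was absent from Msx2-KO mice. Which exons the reads of *Msx2* came from was not tested.

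Long noncoding RNAs act as RNA and encode no protein of note. *Malat1* gathers in nuclear speckles, where splicing factors are stored, and *Neat1* is the scaffold of paraspeckles, which form around its long isoform. *Kcnq1ot1*, *Meg3* and *H19* come from imprinted clusters, where a single parental copy is read, and *Kcnq1ot1* silences its neighbours on the paternal chromosome. *Gas5*, *Snhg1* and *Snhg12* are spliced hosts: their introns release snoRNAs, which guide the chemical modification of ribosomal RNA, and the spliced remainder is itself short-lived because translation exposes it to nonsense-mediated decay.

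By the annotation, *Malat1* lies at chr19:5795690-5802672 (mm10, minus strand) and *Neat1* at chr19:5824708-5845478 on the same strand, the longest transcript of each being a single exon. *Kcnq1ot1* is a single exon of 93092 bases at chr7:143203458-143296549 on the minus strand, antisense to *Kcnq1*. *H19* lies at chr7:142575529-142578143 on the minus strand and *Meg3* at chr12:109541001-109571726 on the plus strand. The hosts are spliced genes of the plus strand, *Gas5* at chr1:161034422-161038539 with 25 annotated transcripts, *Snhg1* at chr19:8723475-8726443 with 18 and *Snhg12* at chr4:132308623-132311024 with 10.

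*Malat1* and the long isoform of *Neat1* share a 3′ structure in which a U-rich stretch pairs with an A-rich tract in place of a poly(A) tail. The longest annotated transcript of *Neat1* ends at this tract, while that of *Malat1* runs 292 bases past it. The 100 bases that end at this tract are shown because they are the feature common to the pair with the highest counts. Capitals mark AAAAAGCAAAA, which are the last 11 bases of *Neat1*, and TTTTGCTTTT, the reverse complement of its last 10, both searched on the transcript strand (GENCODE M21, mm10; chr19:5795982-5796081 and chr19:5824708-5824807, both minus strand).
Malat1: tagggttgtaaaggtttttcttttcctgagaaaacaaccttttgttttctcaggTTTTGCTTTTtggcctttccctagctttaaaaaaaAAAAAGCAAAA
Neat1: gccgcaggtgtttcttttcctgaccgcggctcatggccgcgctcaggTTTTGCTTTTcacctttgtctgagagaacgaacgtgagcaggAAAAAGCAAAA
Of 135441 annotated transcripts of at least 160 bases, 618 (0.456%) held AAAAAGCAAAA. In 4 of them (0.00295%) TTTTGCTTTT lay within the 120 bases before it, namely in 1 transcript each of *Malat1* and *Neat1*, from which the letters were taken, and in 2 of the coding gene *Retreg3*. *Kcnq1ot1* was not among the 4.

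The hosts are known as genes whose RNA begins with a run of pyrimidines, as the messages of ribosomal proteins do. Their starts are shown for that reason, from 20 bases before to 30 bases from the start (RefSeq, GRCm38.p6; chr1:161035146-161035195, chr19:8723467-8723516 and chr4:132308658-132308707, all plus strand). Capitals mark a C followed by at least 4 further C or T bases, the C lying within 5 bases of the start.
Gas5: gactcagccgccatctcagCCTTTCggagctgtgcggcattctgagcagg
Snhg1: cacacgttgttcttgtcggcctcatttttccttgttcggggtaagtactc
Snhg12: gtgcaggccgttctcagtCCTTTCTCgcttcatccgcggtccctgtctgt
The run was found in *Gas5*, at the downstream of its 2 RefSeq starts, and in *Snhg12*, and these letters were not in the window of *Snhg1*. Among 32851 starts in the same table, 6027 (18.3%) held such a run.

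For each host, 1 intron-encoded snoRNA with values of its own is shown next, since their values are set beside those of their hosts further on. Capitals mark TGATGA and the last CTGA of the C/D class, and the ACA near the 3′ end of the H/ACA class (GENCODE M21, mm10, plus strand; chr19:8725866-8725991, chr1:161037601-161037681 and chr4:132309465-132309600).
Snord22, in Snhg1: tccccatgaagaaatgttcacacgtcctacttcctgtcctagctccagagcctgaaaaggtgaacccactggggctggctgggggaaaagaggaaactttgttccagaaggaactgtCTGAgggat
Snord80, in Gas5: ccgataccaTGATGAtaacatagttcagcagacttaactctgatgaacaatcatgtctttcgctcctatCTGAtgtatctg
Snora16a, in Snhg12: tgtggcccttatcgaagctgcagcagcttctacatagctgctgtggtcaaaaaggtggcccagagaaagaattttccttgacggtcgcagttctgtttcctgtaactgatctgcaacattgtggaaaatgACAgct
TGATGA was not in the annotated letters of *Snord22*. *Snord22* is spliced out by 8 of the 12 *Snhg1* transcripts that span it, *Snord80* by 16 of 17 of *Gas5*, and *Snora16a* by 6 of 8 of *Snhg12*. The other transcripts keep it, so that a read inside a snoRNA could be counted to either gene.

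Depth and composition differed between libraries and groups. HFSC libraries held 3132974 to 11016659 estimated counts, with 20229 to 22867 genes above 0 in WT and 11749 to 14616 in KO. EpdSC libraries held about 15213600 to 21092700 counts, as read back from the value of a single count. That value made 73.4% to 83.0% of the low values of a library nearly whole, so EpdSC counts given here are estimates. Mitochondrial ribosomal RNA took 8.94% and 36.3% of the WT and 49.4% and 53.2% of the KO libraries of HFSCs, and 23.5% and 16.4% against 0.073% and 6.18% in EpdSCs. The sort markers were present, with *Ly6a*, which encodes Sca-1, at 472 to 3493 normalized counts in all EpdSC libraries. *Itga6*, which encodes CD49f, was at 8229 and 9959 in WT and 68397 and 32855 in KO EpdSCs (log2 fold change 2.39, limma adjusted p = 0.089). Of the 7 EpdSC sort and identity markers tested there, 5 had positive and 2 negative log2 fold changes, from -4.3 to 2.39. Of these 0 were called, beside 9.35% of all genes. In HFSCs the sort marker *Cd34* was at 3004 and 2670 in WT and 1084 and 879 in KO (log2 fold change -1.53, edgeR adjusted p = 0.143). Of 8 identity markers 7 lay below WT in both KO libraries, as did 33.5% of all genes tested. Suprabasal epidermis markers moved with the label in both cell types. Their summed level was 1176 and 1325 in WT and 4971 and 19158 in KO HFSCs. There 6 of 7 tested had an unadjusted p under 0.05 by edgeR, beside 18.1% of all genes. In EpdSCs they summed to 299840 and 216560 in WT and 107410 and 82075 in KO. *Ivl* and *Sbsn* of the 8 tested there were called lower, beside 7.78% of all genes. Sebaceous gland markers summed to 413 and 540 in WT and 7606 and 5964 in KO HFSCs. There all 5 tested were higher in KO with an unadjusted p under 0.05 by edgeR, beside 18.1% of all genes. In EpdSCs they summed to 6556 and 7145 in WT and 25390 and 10941 in KO. Of the 3 tested in EpdSCs, 2 lay above WT in both KO libraries and 1 below, beside 27.8% and 44.5% of all genes. The column headers of the KO EpdSC libraries end in 11 and 12 and those of the WT EpdSC libraries in far higher numbers, and the WT HFSC headers follow another naming scheme than all others. Whether the libraries of both labels were prepared and sequenced together is not given in the sources used here, so that preparation and genotype cannot be told apart. The part of these differences in the results that follow was not tested.

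In HFSCs no member passed the threshold. A gene was called where edgeR (quasi-likelihood, Benjamini-Hochberg) gave an adjusted p below 0.05 together with a change of more than 2-fold in either direction. The nuclear RNAs *Malat1*, *Neat1* and *Kcnq1ot1* had their lower values in KO, *Gas5* and *Snhg12* their higher values, and *Snhg1* overlapped. The 6 members that passed the filter on low counts had a median log2 fold change of -0.78, against -0.14 for all 14422 genes tested. Without the filter these medians were -0.82 and -0.70, and with a replicate block -0.96 and -0.65. The share of all genes called was 0%: edgeR called 0 genes and 2614 (18.1%) had an unadjusted p under 0.05, among them *Neat1* and *Kcnq1ot1*. On the same table DESeq2 called 674 genes (4.67%, with 2.43% lower in KO) and limma-trend 1407 (9.76%, with 8.66% lower). Fewer cells of a type and less RNA per cell cannot be told apart in these bulk samples.

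*Malat1* was at 142669 and 282988 TMM-normalized counts in the WT and 81244 and 125905 in the KO libraries of HFSCs. The KO values lay below both WT values, but the WT pair differed by 1.98-fold among themselves. Its log2 fold change was -1.04 ± 1.04 (SE), with an adjusted p of 0.763 by edgeR. *Malat1* was among the 6 highest genes of every HFSC library and took 4.04% and 4.57% of the WT and 1.11% and 1.41% of the KO counts. Of the counts outside mitochondrial genes it took 4.51% and 7.72% in WT and 2.55% and 3.71% in KO.

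*Neat1* was at 18218 and 15271 normalized counts in WT and 5355 and 7806 in KO HFSCs. Its groups did not overlap and lay well apart. The log2 fold change was -1.35 ± 0.39 (SE), with an adjusted p of 0.178 by edgeR and of 0.00581 by DESeq2, which called it lower at a log2 fold change of -1.31. It was the 1 member that DESeq2 called, and limma-trend called 0 of the 6. Without KO replicate 2, when the spread comes from the WT pair alone, edgeR gave -1.65 with an adjusted p of 0.0326, in a fit that called 59.1% of all genes. Under scaling by library totals the log2 fold changes were -2.26 for *Neat1*, -1.78 for *Malat1* and -1.81 for *Kcnq1ot1*, beside a median of all genes that moved to -1.0, and none was called.

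*Kcnq1ot1* was at 1448 and 1329 normalized counts in WT and 665 and 795 in KO HFSCs. The KO values were the lower in both libraries and the replicates were close, 1.09-fold apart in WT and 1.19-fold in KO. The log2 fold change was -0.93 ± 0.23 (SE) with an adjusted p of 0.143 by edgeR, and -1.07 with an adjusted p of 0.0256 without KO replicate 2, where 59.1% of all genes were called. Both KO libraries lay below both WT libraries for *Malat1*, *Neat1* and *Kcnq1ot1*, 3 of the 6 members tested, as they did for 33.5% of all genes tested.

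The host *Gas5* was at 298 and 269 normalized counts in WT and 356 and 412 in KO HFSCs. Both KO values were higher, with a log2 fold change of 0.44 ± 0.26 (SE) and an adjusted p of 0.544 by edgeR. When libraries were scaled by their totals, the median of all genes shifted from -0.14 to -1.0 and the value of *Gas5* to -0.45, so that its sign depends on the scaling. *Snhg12* was at 73.5 and 71.2 in WT and 163 and 105 in KO, with a log2 fold change of 0.89 ± 0.58 (SE) and an adjusted p of 0.579. Its KO values were the higher, and without KO replicate 2 it passed the threshold at 1.17 (adjusted p = 0.0167), as did 59.1% of all genes. Under scaling by totals its log2 fold change was 0.06. These were 2 of 6 members above WT in both KO libraries, beside 17.5% of all genes.

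*Snhg1* was at 68.6 and 131 normalized counts in WT and 18 and 110 in KO HFSCs. Its groups overlapped, and the KO libraries differed by 6.13-fold. The log2 fold change was -0.64 ± 1.12 (SE) with an adjusted p of 0.892 by edgeR. It was 0.16 without KO replicate 1 and -2.44 without KO replicate 2 (adjusted p = 0.0163, with 59.1% of all genes called), so that its direction rested on a single library.

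The imprinted *Meg3* and *H19* did not pass the filter on low counts. *Meg3*, from the *Dlk1* cluster, had 20 and 1 estimated counts in WT and 0 and 2 in KO HFSCs. *H19*, next to *Igf2*, had 1 in each WT library and 153 and 0 in KO. Nearly all counts of *H19* came from KO replicate 1, and of *Meg3* from WT replicate 1. Without the filter edgeR gave adjusted p values of 0.357 for *H19* and 0.457 for *Meg3*. Without KO replicate 2, where 59.1% of all genes were called, *H19* was called higher (adjusted p = 0.00273) and *Meg3* lower (adjusted p = 0.0499), each from a single KO library.

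**Figure D1:**
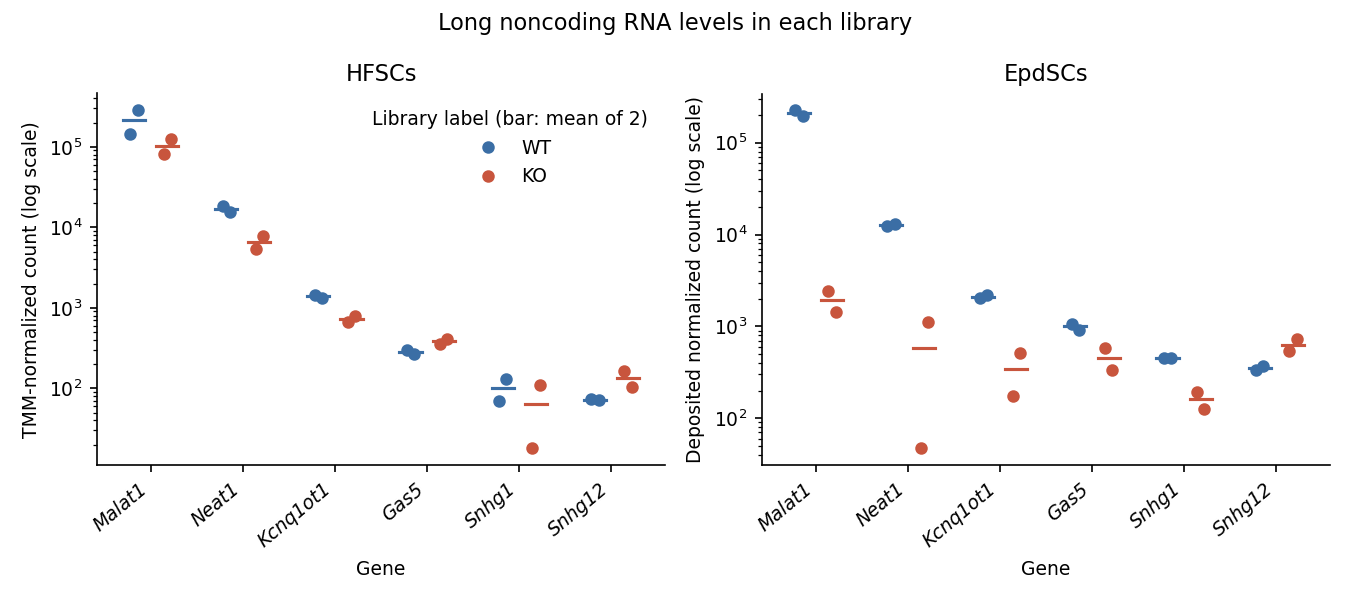
Level of the 6 long noncoding RNAs measured in both tables, per library, as TMM-normalized counts in HFSCs (left) and the authors' normalized counts in EpdSCs (right), both on log axes. Points are the 2 libraries of each label and bars their means. In EpdSCs *Malat1* stands at 224974 and 194454 in WT and 2400 and 1437 in KO.

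In EpdSCs *Malat1* fell in the libraries labelled KO. It was the 1 member of 6 tested that passed the threshold, by limma on log2(normalized count + 1) with Benjamini-Hochberg adjustment, beside 9.35% of the 16231 genes tested (7.78% lower and 1.57% higher). *Neat1*, *Kcnq1ot1*, *Snhg1* and *Gas5* also had lower values in both KO libraries without passing, and *Snhg12* had higher values. So 5 of 6 members lay below WT in both KO libraries, which held for 44.5% of all genes, and 1 lay above, which held for 27.8%. An unadjusted p under 0.05 was found for 4 of 6, *Malat1*, *Neat1*, *Kcnq1ot1* and *Snhg1*, beside 35.3% of all genes. The median log2 fold change of the 6 members was -2.17, against -0.64 for all genes. Leaving out the genes of mitochondrial and ribosomal RNA and rescaling by totals moved these medians to -2.70 and -1.14, and scaling by totals alone moved that of all genes to -0.88.

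*Malat1* was at 224974 and 194454 normalized counts in WT and 2400 and 1437 in KO EpdSCs. The counts read back from these were about 207732, 205012, 1886 and 2132, as estimates. Nothing in the replicates came near closing this gap, since they differed by 1.16-fold in WT and 1.67-fold in KO. The log2 fold change was -6.81 ± 0.54 (SE), or 113-fold lower, with an adjusted p of 0.0266 by limma. The gene ranked 4 and 5 among all genes of the WT libraries, and 1768 and 1846 in KO. Its share of the library went from 1.37% and 1.32% to 0.00972% and 0.0101%. The call was lost without WT replicate 1 (-6.71, adjusted p = 0.288) and without WT replicate 2 (-6.92, adjusted p = 0.268), when limma called 0 genes in all with 2060 and 2077 at an unadjusted p under 0.05.

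*Neat1* was at 12243 and 12930 normalized counts in WT and 47.1 and 1121 in KO EpdSCs. Both KO values lay far below WT, and they differed from each other by 23.8-fold, about 37.0 counts against 1663. The log2 fold change was -5.76 ± 1.71 (SE) with an adjusted p of 0.111 by limma. It was -3.49 without KO replicate 1 (adjusted p = 0.0297) and -8.03 without KO replicate 2 (adjusted p = 0.00879), in fits that take the spread from the WT pair and called 37.6% and 63.9% of all genes.

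*Kcnq1ot1* was at 2020 and 2196 normalized counts in WT and 174 and 518 in KO EpdSCs. The KO values were the lower, with a 2.97-fold gap between them. The log2 fold change was -2.80 ± 0.73 (SE) with an adjusted p of 0.0927 by limma, and it passed at -2.02 without KO replicate 1 (adjusted p = 0.0322) and at -3.59 without KO replicate 2 (adjusted p = 0.00941), beside the same 37.6% and 63.9% of all genes.

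Among the hosts, *Gas5* was at 1071 and 925 normalized counts in WT and 577 and 336 in KO EpdSCs. The groups did not overlap, and the log2 fold change was -1.18 ± 0.54 (SE) with an adjusted p of 0.205 by limma. Without KO replicate 1 it passed at -1.57 (adjusted p = 0.0421), as did 37.6% of all genes. *Snhg1* was at 452 and 455 in WT and 194 and 127 in KO, with a log2 fold change of -1.53 ± 0.51 (SE) and an adjusted p of 0.131. Its WT libraries were nearly equal, and without either KO replicate it passed, at -1.83 (adjusted p = 0.0326) and -1.22 (adjusted p = 0.0276), in the fits that called 37.6% and 63.9% of all genes.

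*Snhg12* was at 335 and 366 normalized counts in WT and 534 and 721 in KO EpdSCs. It was the member whose KO values were higher in both cell types. Its log2 fold change was 0.82 ± 0.49 (SE) with an adjusted p of 0.284 by limma, and 0.29 after mitochondrial and ribosomal RNA genes were left out. The difference between the effects in the 2 cell types was not tested for any member, since the tables are in different units.

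**Figure D2:**
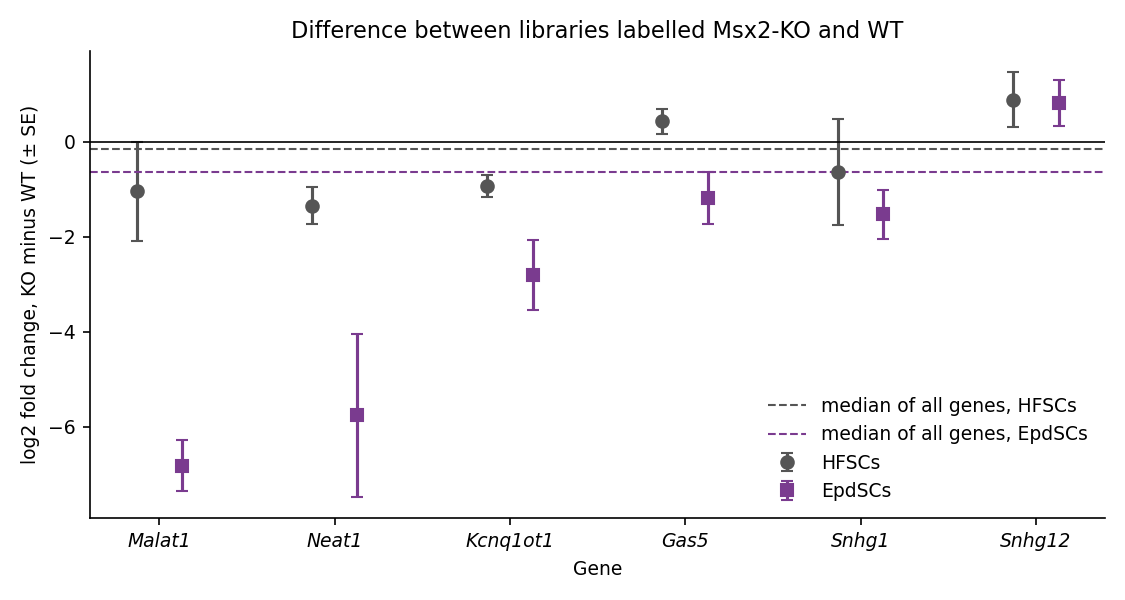
Log2 fold change of each RNA, KO minus WT, with its SE, in HFSCs (circles) and EpdSCs (squares), with dashed lines at the medians of all genes tested, -0.14 and -0.64. *Malat1* at -6.81 and *Neat1* at -5.76 in EpdSCs lie farthest from 0, and *Snhg12* is above 0 in both cell types.

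The order of the members was compared on normalized counts per kilobase of all annotated exons. In WT EpdSCs *Malat1* led with a mean of 30032 per kilobase, before *Neat1* with 606, *Gas5* with 265, *Snhg1* with 153, *Snhg12* with 146 and *Kcnq1ot1* with 22.6. The neighbours *Snhg1* (152 and 153) and *Snhg12* (140 and 152) overlapped, while the others were apart in both libraries. In KO EpdSCs the levels per kilobase were 344 and 206 for *Malat1*, 222.1 and 299.96 for *Snhg12*, 153 and 89.3 for *Gas5*, 65.2 and 42.7 for *Snhg1*, 2.27 and 54.0 for *Neat1* and 1.87 and 5.56 for *Kcnq1ot1*. There *Malat1* and *Snhg12* overlapped, as did *Neat1* with *Snhg1* and *Kcnq1ot1*. In WT HFSCs *Malat1* had a mean of 30478 per kilobase, *Neat1* 806, *Gas5* 75.4, *Snhg1* 33.5, *Snhg12* 30.1 and *Kcnq1ot1* 14.9, and *Snhg1* and *Snhg12* overlapped again. In KO HFSCs the means were 14832, 317, 102, 21.6, 55.9 and 7.84 in the same order of genes, where *Snhg1* (6.06 and 37.2) overlapped *Kcnq1ot1* (7.15 and 8.54) and lay below *Snhg12* (43.8 and 68.0).

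Within each library, the members were also placed among the 15337 genes listed in both tables, the only scale that both cell types share. *Malat1* stood at 100% after rounding in all 6 libraries other than the KO EpdSCs, where it stood at 88.5% and 88.0%. *Neat1* stood at 99.4% or above in those 6 libraries, and at 41.1% and 84.9% in KO EpdSCs. *Kcnq1ot1* ranged from 93.4% to 98.5% and then stood at 54.0% and 71.7%. *Gas5* stood at 83.1% and 85.6% in WT and 70.2% and 63.7% in KO EpdSCs, and *Snhg12* at 60.1% and 62.7% in WT and 69.1% and 77.6% in KO.

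**Figure D3:**
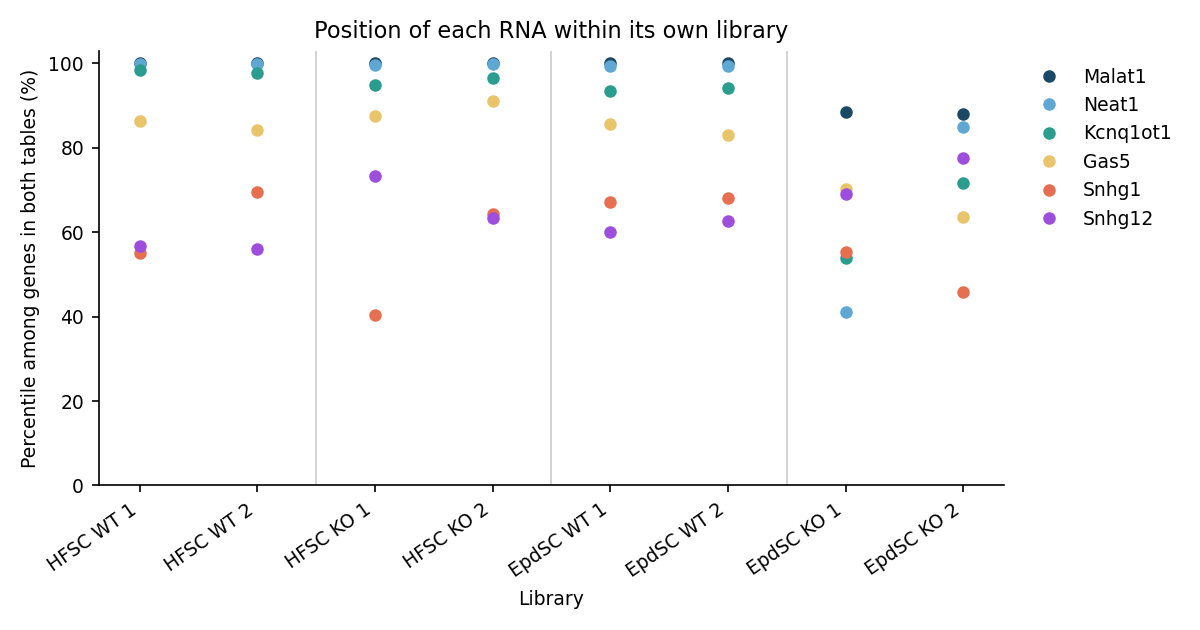
Percentile of each RNA among the genes listed in both tables, within each of the 8 libraries. The 3 nuclear RNAs lie at 93.4% or above in all libraries but the KO EpdSCs, where *Neat1* is at 41.1% and 84.9%.

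Library composition moved together with these values in EpdSCs. Long intergenic noncoding RNAs other than *Malat1* took 0.366% and 0.315% of the WT and 0.124% and 0.149% of the KO counts. Small nuclear RNAs took 0.269% and 0.16% against 1.55e-05% and 5.22e-05%, and snoRNAs took 0.0902% and 0.0812% against 7.73e-06% and 0.000583%. Of 41 snoRNAs tested, 37 were called lower, beside 7.78% of all genes, and 41 lay below WT in both KO libraries, beside 44.5%. Of 22 small nuclear RNAs 19 were called lower. The snoRNAs summed to 1.91 and 82.9 normalized counts in KO and the small nuclear RNAs to 3.82 and 7.41. Both classes were tested almost only through their WT values, so that their calls could hardly have gone the other way. Of 319 long intergenic noncoding RNAs tested, 47 were called lower and 9 higher, beside 7.78% and 1.57% of all genes. Their median log2 fold change was -1.46. In HFSCs small nuclear RNAs took 0.0144% and 0.0412% in WT and 0.0968% and 0.178% in KO, and snoRNAs 0.0527% and 0.0886% against 0.0317% and 0.0604%. The part of these class differences in the values of the members was not tested.

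**Figure D4:**
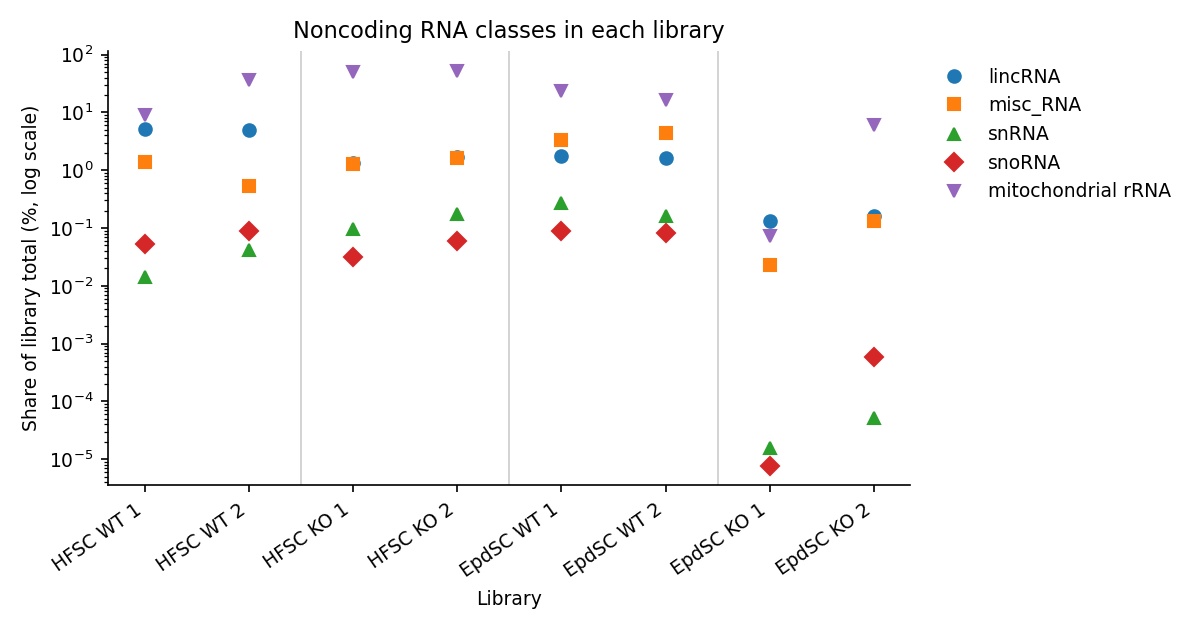
Share of each library's total taken by classes of noncoding RNA, in percent on a log axis, for the 8 libraries. In the KO EpdSCs the small nuclear RNAs are at 1.55e-05% and 5.22e-05%, against 0.269% and 0.16% in WT EpdSCs.

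Fold changes also differed with transcript length. Protein-coding genes with a longest transcript under 1 kb, of 1 to 2, 2 to 4, 4 to 8 and at least 8 kb had median log2 fold changes of 0.95, 0.25, -0.08, -0.22 and -0.33 in HFSCs. In EpdSCs the medians were -0.56, -0.18, -0.12, -0.37 and -0.98, so that the shortest and the longest genes were both lower than those between. *Malat1* (6983 bases), *Neat1* (20771 bases) and *Kcnq1ot1* (93092 bases) are the long members, and the longest transcripts of the hosts are 2556 bases for *Gas5*, 2728 for *Snhg1* and 1538 for *Snhg12*. The part of length in the values of the members was not tested.

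Several genes share the loci of the members. *Gm37376*, an unclassified transcript of 453 bases on the opposite strand within *Malat1* (chr19:5801941-5802393), was at 7492 and 12401 normalized counts in WT and 14.0 and 97.4 in KO HFSCs. In EpdSCs it was at 1453 and 200 in WT and listed at 0 in both KO libraries, and limma called it lower (adjusted p = 0.0312). It was tested there through its WT values alone, so that the call could not have gone the other way. Per 100 counts of *Malat1* there were 5.25 and 4.38 of *Gm37376* in WT and 0.0176 and 0.0777 in KO HFSCs, and 0.646 and 0.103 in WT EpdSCs. The ratio was thus not fixed between groups or cell types. The use of strand in the counting is not given in the sources used here, and without it the reads of these overlapping genes cannot be told apart.

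*Zbtb37*, which encodes a zinc finger protein and overlaps the start of *Gas5* on the opposite strand, fell in EpdSCs. It was at 633 and 819 normalized counts in WT and 43.3 and 23.3 in KO, with a log2 fold change of -4.46 (limma, adjusted p = 0.0326). In HFSCs it was at 507 and 453 in WT and 274 and 301 in KO (log2 fold change -0.74, edgeR adjusted p = 0.24), where the values of *Gas5* differed in the other direction. *Slc3a2*, which encodes a subunit of amino acid transporters and lies within 1 kb of *Snhg1*, was at 1076 and 1101 in WT and 4719 and 1013 in KO EpdSCs, so its groups overlapped. *Trnau1ap*, within 1 kb of *Snhg12* and known for its part in selenoprotein synthesis, was at 369 and 285 in WT and 443 and 140 in KO EpdSCs and overlapped too. In HFSCs *Slc3a2* was at 448 and 481 in WT and 324 and 242 in KO, and *Trnau1ap* at 68.6 and 51.4 against 29.3 and 113. Of the 10 neighbours tested in EpdSCs, 1 was called, and of the 10 in HFSCs 0, beside 9.35% and 0% of all genes.

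Imprinted neighbours were mostly near 0 in HFSCs. *Kcnq1*, a potassium channel gene, was at 4.08 and 3.96 normalized counts in WT and 0.0 in both KO libraries. *Cdkn1c*, a cell cycle inhibitor of the same cluster, was at 19.6 and 17.8 in WT and 32.0 and 26.0 in KO (log2 fold change 0.63, edgeR adjusted p = 0.891). In the *Dlk1* cluster, *Dlk1* was at 19.6 and 3.96, *Rian* at 25.3 and 17.8 and *Mirg* at 8.17 and 5.93 in WT, and all 3 were at 0.0 in both KO libraries. Of the 19 listed neighbours 6 passed the filter in HFSCs, some through the WT group alone. In EpdSCs 7 were tested and *Nap1l4*, a histone chaperone gene, was called higher, beside 1.57% of all genes. It was at 1064 and 986 in WT and 28114 and 12767 in KO (log2 fold change 4.21, limma adjusted p = 0.0399). *Igf2* was at 0.0 and 16.1 in WT and 1.27 and 18.9 in KO EpdSCs.

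The snoRNAs inside the hosts were listed at 0 in the KO libraries of EpdSCs, for *Snhg12* as for *Snhg1*, where all 41 snoRNAs tested summed to 1.91 and 82.9 normalized counts. *Snord22* was at 529 and 222.1 normalized counts in WT and listed at 0 in both KO libraries, where its host *Snhg1* was at 194 and 127. *Snora16a* was at 156 and 50.9 in WT and *Snora44* at 22.9 and 19.2, and both were listed at 0 in both KO libraries, where their host *Snhg12* was at 534 and 721. These were the 3 listed snoRNAs with values, they were tested through their WT values alone, and limma called all 3 lower (adjusted p = 0.0266, 0.0282 and 0.0274). In HFSCs *Snord22* was at 12.3 and 123 in WT and 89.3 and 203 in KO, with overlapping groups. *Snord80* of *Gas5* was at 18.8 and 23.7 and *Snord99* of *Snhg12* at 13.9 and 33.6 in WT HFSCs, and both were at 0.0 in the KO libraries. These low values passed the filter through WT alone, and neither was called (edgeR adjusted p = 0.143 each). The KO values of their hosts were the higher after TMM scaling. Under scaling by library totals the log2 fold changes were -0.45 for *Gas5* and 0.06 for *Snhg12*.

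**Figure D5:**
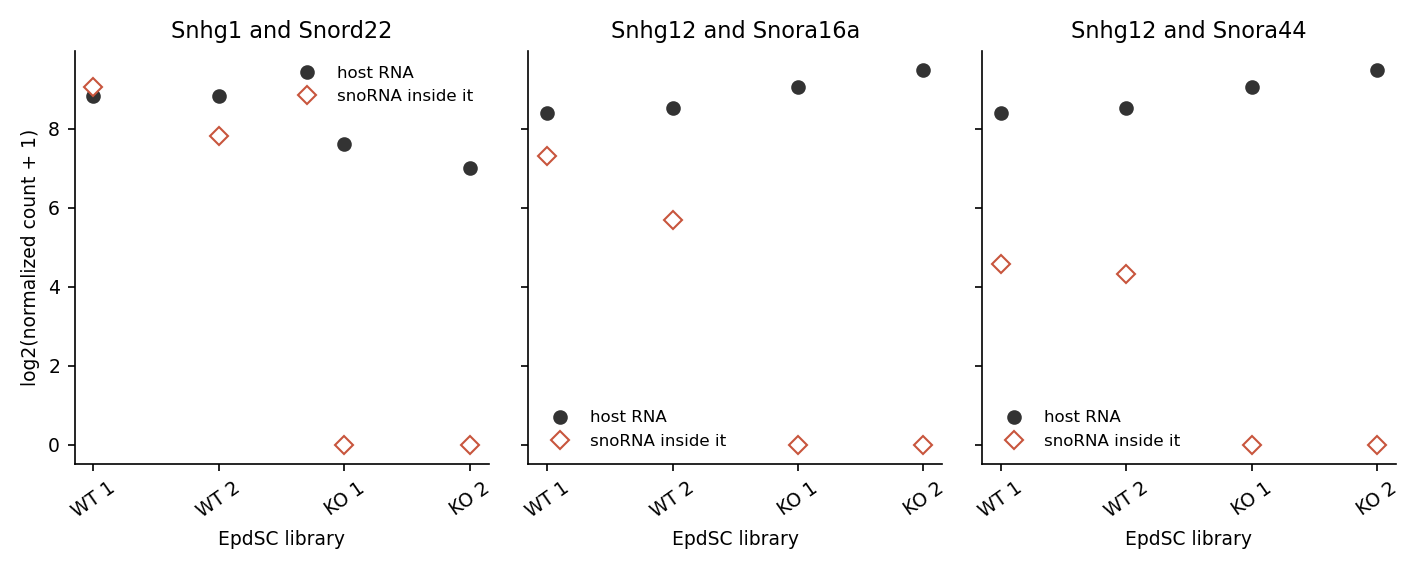
Level of a host RNA (filled circles) and of a snoRNA inside it (open diamonds) in each EpdSC library, as log2(normalized count + 1). All 3 snoRNAs are listed at 0 in both KO libraries, where *Snhg1* is at 194 and 127 and *Snhg12* at 534 and 721 normalized counts.

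Other noncoding hosts showed no common direction. Of 17 listed, 12 were tested in HFSCs and 0 called, with a median log2 fold change of -0.60. Among hosts whose mean reached 50 normalized counts, the lowest unadjusted p belonged to *Snhg4*, at 27.0 and 37.6 normalized counts in WT and 428 and 482 in KO HFSCs (log2 fold change 3.83 ± 0.38, edgeR adjusted p = 0.143), followed by *Snhg20* at 78.4 and 37.6 in WT and 126 and 194 in KO (1.45 ± 0.67, adjusted p = 0.401). In EpdSCs 14 were tested and 0 called, beside 9.35% of all genes, with a median of -0.65 against -0.64 for all genes. *Snhg10* was at 6.50 and 3.79 in WT and 335 and 88.3 in KO (log2 fold change 4.85 ± 0.86, limma adjusted p = 0.0541), and *Snhg17* at 680 and 485 in WT and 134 and 158 in KO (-1.98 ± 0.50, adjusted p = 0.0885).

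Protein-coding hosts, most of them genes of ribosomal proteins and translation factors, had medians of opposite sign in the cell types, a difference that was not tested. In HFSCs their median log2 fold change was 1.03 over 24 genes, against -0.14 for all genes tested. Of the 24, 12 had an unadjusted p under 0.05 by edgeR, all higher in KO, and 0 were called. Among all 14422 genes 18.1% had such a p, and 765 genes had it with higher values in KO. *Rpl17* was at 4.08 and 3.96 in WT and 550 and 394 in KO (log2 fold change 6.83 ± 0.47) and *Rps3* at 698 and 461 against 2418 and 2242 (2.01 ± 0.31), each with an edgeR adjusted p of 0.143. In EpdSCs the median was -1.98, against -0.64 for all genes. *Ncl* and *Rpl13a* were called lower and *Nap1l4* higher, beside 7.78% and 1.57% of all genes. *Ncl*, which encodes nucleolin, was at 12148 and 11080 in WT and 1314 and 1392 in KO (log2 fold change -3.10 ± 0.46, limma adjusted p = 0.041). *Rpl13a*, of the large ribosomal subunit, was at 20315 and 19454 in WT and 2767 and 2368 in KO (-2.96 ± 0.47, adjusted p = 0.0452). Ribosomal protein genes have many processed pseudogenes, and counts split among such copies are uncertain.

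Of 28 other long noncoding RNAs listed, 17 were tested in EpdSCs and 4 were called lower, beside 7.78% of all genes. Their median log2 fold change was -1.19, against -0.64 for all genes. *Firre*, a nuclear RNA of the X chromosome, was at 1750 and 1800 normalized counts in WT and 210 and 189 in KO (-3.15 ± 0.46, limma adjusted p = 0.0399). *Terc*, the RNA of telomerase, was at 72.6 and 99.6 against 0.0 and 0.674 (limma adjusted p = 0.0266). It was tested almost only through its WT values, so that the call could hardly have gone the other way. *Lncpint* was at 270 and 291 against 1.27 and 7.41 (-6.01 ± 0.82, adjusted p = 0.036), and the imprinted *Peg13* at 207 and 212 against 28.0 and 16.9 (-3.21 ± 0.52, adjusted p = 0.0477). *Tug1*, also a nuclear RNA, had higher values in KO EpdSCs, 3681 and 2358 against 1378 and 1442 (1.06 ± 0.51, adjusted p = 0.218). That gene stands outside the naming rule and was chosen after its values were seen. In HFSCs 18 were tested and 0 called, with a median of -0.65. *Lncpint* was at 746 and 635 in WT and 327 and 358 in KO HFSCs (-1.01 ± 0.24, edgeR adjusted p = 0.143), and *Tug1* at 461 and 621 against 273 and 305 (-0.90 ± 0.28, adjusted p = 0.209).

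The proteins of paraspeckles, which assemble on *Neat1*, showed no call among 14 tested, beside 0% of all genes in HFSCs and 9.35% in EpdSCs. Their median log2 fold changes were -0.07 in HFSCs and -0.03 in EpdSCs. In EpdSCs *Smarca4*, a chromatin remodeller, was at 3789 and 3820 in WT and 149 and 534 in KO (-3.75 ± 0.81, limma adjusted p = 0.0706), and *Hnrnpk* at 2598 and 2320 against 18840 and 9628 (2.46 ± 0.58, adjusted p = 0.081). The core proteins *Sfpq* and *Nono*, named outside the rule, had log2 fold changes of -0.01 and -0.27 there, while their values in single KO libraries ranged from 3715 to 6264 and from 1724 to 3422. In HFSCs the lowest unadjusted p values were those of *Hnrnpm* (-0.58 ± 0.22, edgeR adjusted p = 0.296) and *Pspc1* (0.58 ± 0.25, adjusted p = 0.37).

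Among 21 speckle and splicing proteins, the compartment of *Malat1*, 2 were called lower in EpdSCs, beside 7.78% of all genes. The median log2 fold change was 0.41 there, against -0.64 for all genes. *Srrm2*, a scaffold protein of speckles, was at 14484 and 13898 in WT and 217.8 and 816 in KO (-5.07 ± 0.83, limma adjusted p = 0.0478), and *Pnisr* at 3148 and 3574 against 383 and 309 (-3.28 ± 0.48, adjusted p = 0.0395). In HFSCs 0 of 21 were called, with a median of -0.28 and the lowest unadjusted p for *Srsf7* (-1.01 ± 0.33, edgeR adjusted p = 0.229) and *Luc7l2* (-0.56 ± 0.28, adjusted p = 0.432).

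For each member in both tables, the genes with the most similar pattern were sought among 5576 genes with a mean of at least 100 in both, by Pearson correlation of log2 values centred within each cell type over the 8 libraries. These libraries share genotype, depth and composition, and the values are a description. *Malat1* was most like *Ranbp2* (r = 0.998) and *Ktn1* (0.996), *Neat1* like *Zmym5* (0.997) and *Zfp146* (0.996), and *Kcnq1ot1* like *Rbm33* and *Stx4a* (both 0.998). *Gas5* was most like *Ern1* (0.985) and *Kri1* (0.977), *Snhg1* like *Zfc3h1* (0.978) and *Rasa1* (0.975), and *Snhg12* like *Ldha* (0.984) and *Uqcrc2* (0.977). No member was among the 2 genes most like another, but *Snhg1* was not among the genes searched. Its HFSC means were 99.6 in WT and 64.2 in KO. Between members r ran from -0.882, for *Snhg1* and *Snhg12*, to 0.987, for *Neat1* and *Kcnq1ot1*. It was 0.885 for *Malat1* and *Kcnq1ot1*.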

How the data were processed

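Bulk RNA-seq libraries of sorted HFSCs and EpdSCs, 2 per genotype and cell type, were grouped by their labels. Libraries were prepared from total RNA with a stranded kit by a sequencing company. Alignment to GRCm38/mm10 used STAR 2.7.3a in Partek, and genes were those of GENCODE M25. The authors deposited the HFSC table as estimated counts without normalization. The EpdSC table was deposited as a normalized signal, said to be estimated counts divided by 1 factor per library. Columns of the authors' own comparisons (fold changes, ratios, p-values and FDR) were not used, and 0 columns of single libraries were left unmapped.

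For HFSCs, edgeR 4.0.16 (quasi-likelihood) was run on rounded counts after filterByExpr and TMM scaling. For EpdSCs, limma 3.58.1 was run on log2(value + 1) of all genes. P-values were adjusted by Benjamini-Hochberg over all genes tested (14422 and 16231). An exact permutation test of 2 against 2 libraries cannot go below a two-sided p of 0.333. DESeq2 1.42.0, limma-trend, other scalings, filters and pseudocounts, a replicate block and leaving out each library were alternatives. The tests were also run on simulated data in which 200 genes changed 8-fold. The simulated dispersion was lower than the common dispersion of 0.823 that edgeR gave for HFSCs. Those runs therefore do not show how the tests perform on these libraries. R 4.3.3 and Python 3.11.15 were used.

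The members and gene lists were chosen with earlier results of these data known. Named were all members, all called genes of each list, otherwise at most the 2 with the lowest unadjusted p and a mean of at least 50, the genes sharing a locus with a member, and the 2 genes most like each member. Coordinates are the deposited ones with the end, which lay 1 base past the gene, moved to its last base. They then matched GENCODE M21 in start and end for 23013 of 23244 genes with the same symbol.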

Additional observations from a re-analysis of the deposited data

Results flagged for a closer look

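4 snoRNA hosts had both KO libraries on opposite sides of WT in the cell types, and the differences between cell types were not tested. The search covered the members and the other noncoding hosts, of which 12 were tested in HFSCs and 14 in EpdSCs. Of all genes, 33.5% lay below WT and 17.5% above in HFSCs, and 44.5% and 27.8% in EpdSCs. The share of all genes on opposite sides was not computed, so the 4 are only listed. *Gas5* had log2 fold changes of 0.44 in HFSCs and -1.18 in EpdSCs, and the HFSC value was -0.45 under scaling by library totals. *Snhg4* stood at 3.83 in HFSCs and -2.52 in EpdSCs. *Snhg20* stood at 1.45 and -1.90. *Snhg18* stood at -6.88 in HFSCs and at 1.23 in EpdSCs. In HFSCs it was at 11.4 and 17.8 normalized counts in WT and at 0 in both KO libraries. It passed the filter there through WT alone, and its value depends on the prior count. None of these 8 values passed the threshold of edgeR or limma.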

How the results depend on the processing

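In HFSCs, single members kept the sign and the side of the threshold in 65 of 72 comparisons with an alternative, were called anew in 5 and changed sign in 2: *Gas5* under scaling by library totals (-0.45) and *Snhg1* without KO replicate 1. The count of members called was 1 with DESeq2 and 0 to 6 over the fits that left out a library. The 6 without KO replicate 2 include *Meg3* and *H19*, which then passed the filter. Genes called in all were 51 with library totals, 2 with at least 10 counts in every library, 674 with DESeq2, 1407 with limma-trend, and 132 to 9272 without single libraries. The median of the members was -1.62 with library totals, -0.96 with limma-trend (all genes -1.0 and -0.46), -0.82 without a filter (all genes -0.70) and -1.24 to -0.36 without single libraries. The median of all genes turned to 0.0804 with at least 10 counts in every library and was -0.72 (without KO replicate 2) to 0.0906 (without WT replicate 1) over the fits without single libraries. *Snhg1* ranged from -2.44 to 0.16 over those fits. Fits that leave out a KO library take their spread from the WT pair alone, and those without a WT library from the KO pair.

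In EpdSCs, 57 of 66 such comparisons kept both, 7 were called anew and 2 lost the call, and 0 changed sign. Members called ranged from 0 to 5 and genes called in all from 0 to 10376 when single libraries were left out. The median of the members was -2.70 without mitochondrial and ribosomal RNA genes. *Malat1* kept its call in all 7 alternatives that used the 4 libraries (adjusted p 0.0135 to 0.0394).

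Replicate numbers only name the libraries: deviations of same-numbered libraries correlated at -0.05 in HFSCs and -0.02 in EpdSCs. With a replicate block HFSCs had 231 genes called and a median of the members of -0.96 against -0.65 for all genes, and EpdSCs 1271 genes called. The causes of these shifts were not tested. Depth limits *Meg3* and *H19*, and 2 libraries per group limit the rest.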

Other observations

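Factors of nonsense-mediated decay, the pathway that degrades spliced host RNAs, gave 1 call among 15 tested in EpdSCs, beside 9.35% of all genes. *Smg1*, the kinase of the pathway, was at 6130 and 6689 normalized counts in WT and 563 and 644 in KO (log2 fold change -3.41 ± 0.47, limma adjusted p = 0.036). Of the 15, 11 had negative log2 fold changes, with a median of -1.38. Among all 16231 genes 9695 were negative, with a median of -0.64. In HFSCs 0 of 14 were called, and *Smg6*, an endonuclease, had the lowest unadjusted p (513 and 473 in WT, 146 and 155 in KO, log2 fold change -1.71 ± 0.26, edgeR adjusted p = 0.143), followed by *Upf3b* (-1.33 ± 0.40, adjusted p = 0.196).

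The core and assembly proteins of snoRNA particles gave 0 calls among 17 tested in EpdSCs and 0 among 16 in HFSCs, beside 9.35% and 0% of all genes. Their medians were 0.86 and 0.26. *Znhit6* was at 300.03 and 255 normalized counts in WT and 11.5 and 39.1 in KO EpdSCs (log2 fold change -3.64 ± 0.77, limma adjusted p = 0.0686), and *Snu13* at 440.4 and 472 in WT and 3667 and 1769 in KO (2.48 ± 0.60, adjusted p = 0.0831). In HFSCs *Nop56* was at 95.6 and 182 in WT and 181 and 357 in KO (0.96 ± 0.57, edgeR adjusted p = 0.535), and *Nop58* at 214 and 261 against 403 and 266 (0.50 ± 0.36, adjusted p = 0.626).

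*Xist*, the RNA of X inactivation, named outside the rule, varied within groups, at 3040 and 105 normalized counts in WT and 827 and 1388 in KO HFSCs, and at 14990 and 0.948 in WT and 1.27 and 1738 in KO EpdSCs. The labels give no sex.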
